A study of Rattus norvegicus with 17 samples.

Results

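The 9 genes described here, Tyrobp, C5ar1, Coro1a, Igsf6, C1qb, Laptm5, Lyn, Klra5 and Csk, act in myeloid and other leukocyte signalling. They were picked by symbol from 2878 symbols measured in rat vessel endothelium, and each is read by 1 probe with a value in the authors' normalised table. Earlier results of the same arrays chose them: they stood out for high levels in the stenotic side branch. Their levels there, and each of their differences against that group, are therefore given as a description with no test. All 9 are kept, and no filter on low values was applied.

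The study joined the right superficial epigastric vein of rats to the common femoral artery, an arteriovenous fistula of the kind used for dialysis access, and tied the vein off beyond the junction. Luminal endothelium was laser-captured 13 to 14 days later, and each of 17 RNA samples, every one a pool of 10 captures, was hybridised to 1 single-colour array. The stenotic side branch (3 arrays) was a side branch of that vein with a narrowed lumen under arterial flow. The NIH vein (5 arrays) was the main vein with neointimal hyperplasia, in which cells thicken the inner wall, and also carried arterial flow. The femoral artery (3 arrays) carried arterial flow without a lesion, and the venous-flow vein (6 arrays) was lesion-free vein beyond the tie under venous flow. For the venous-flow vein the source names give ligation surgery, where those of the other groups give fistula surgery, but its descriptions name fistula surgery too and the study design takes it from the same fistulas. In the sample titles the venous-flow arrays have a number after the letters PL, where the arrays of the other groups have AVF. The labels do not settle which surgery the venous-flow vein had. If the surgeries differed, surgery and vessel cannot be told apart in any comparison with it. The sources used here do not give strain, sex or age. The design names 6 rats for 17 regions, by which some arrays share a rat. The titles of the 17 samples each carry a different number, and whether a number stands for a rat was not established. Regions were therefore not tied to animals here. The p-values below measure the spread between regions and ignore any shared rats. They can be too small where a rat gave several regions to 1 group. They can be too large where it gave regions to both groups compared. The size of either error is unknown.

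As background, many activating receptors of macrophages, granulocytes and natural killer cells have no signalling tail of their own and pair with small adaptors such as Tyrobp, whose tail carries an immunoreceptor tyrosine-based activation motif. Src-family kinases such as Lyn phosphorylate these motifs, and Csk holds the same kinases in check by phosphorylating their inhibitory tail. Complement adds a second input: C1qb is a chain of the C1q recognition molecule, which macrophages make, and C5ar1 is the receptor through which the C5a fragment draws and activates myeloid cells. In a vessel wall such genes are known mainly from leukocytes that adhere to or enter the wall, although Csk and, at lower levels, Lyn are used by many cell types.

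The members were chosen for a shared high level in the stenotic side branch, and the bases before the start of each gene were searched for 2 short cores read by ETS-family factors, which include the myeloid regulator PU.1. RefSeq (build GRCr8) held this stretch for 5 members, namely C1qb, Coro1a, Igsf6, Klra5 and Laptm5. The 250 bases before the start were read on both strands. GAGGAAG occurs in 10.2% of 33469 promoters of that length and in 1 of the 5, Laptm5. GGAAGT occurs in 19.2% of them and in 3 of the 5, C1qb, Igsf6 and Laptm5, and the 2 cores can overlap. The 3 promoters that hold a match are printed 5′ to 3′ on the strand of the gene, with the match in capitals, on chr5:154407828-154408077 (minus strand) for C1qb, chr1:185051957-185052206 (minus strand) for Igsf6 and chr5:148371630-148371879 (plus strand) for Laptm5. A match describes letters in this window and is no measured site.
C1qb: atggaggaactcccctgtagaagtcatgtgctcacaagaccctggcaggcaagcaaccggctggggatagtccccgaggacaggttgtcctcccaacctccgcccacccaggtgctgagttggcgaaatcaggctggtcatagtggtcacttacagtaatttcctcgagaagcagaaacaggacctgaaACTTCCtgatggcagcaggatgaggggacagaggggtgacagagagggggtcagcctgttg
Igsf6: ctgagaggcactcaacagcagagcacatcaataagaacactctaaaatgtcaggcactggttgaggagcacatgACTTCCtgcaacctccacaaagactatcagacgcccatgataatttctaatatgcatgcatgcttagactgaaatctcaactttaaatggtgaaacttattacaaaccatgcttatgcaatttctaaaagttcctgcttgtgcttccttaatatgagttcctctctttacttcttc
Laptm5: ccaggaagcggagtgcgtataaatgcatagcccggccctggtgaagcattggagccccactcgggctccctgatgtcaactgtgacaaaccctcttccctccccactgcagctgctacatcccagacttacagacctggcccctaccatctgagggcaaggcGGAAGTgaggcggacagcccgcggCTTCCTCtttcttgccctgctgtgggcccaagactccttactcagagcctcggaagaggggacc

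In C1qb the match lies on the opposite strand 61 bases before the start, and in Igsf6 on the opposite strand 176 bases before it. Laptm5 holds GGAAGT on its own strand 88 bases before the start and GAGGAAG on the opposite strand 64 bases before it. The promoters of Coro1a and Klra5 hold neither core.

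Both deposited forms of the data disagree on which array is which sample, and this bears on every comparison below. For 12 of the 17 arrays the scanner file carries the signal that the value table lists under another sample. The arrays filed as stenotic side branch 1, 2 and 3 stand in the value table as venous-flow vein 1, 2 and 3. Femoral artery 1, 2 and 3 stand there as venous-flow vein 4, 5 and 6, and the 6 venous-flow arrays stand there as stenotic side branch or femoral artery. Only the 5 NIH veins keep their names. Values are given first by the sample of the scanner file, then by that of the value table. On 11 arrays, among them stenotic side branch 2 and 3 and all of femoral artery and venous-flow vein, the background column is the mean of 2 other arrays to within 0.0011 intensity units, and signal outside the spots of the value table is filled likewise (at least 93.2% equal, against at most 0.01% inside). Levels are log2 intensities after background correction and quantile normalisation, on which 5.64 is the floor that the correction sets. Median signal above background ranged over the arrays from 28.5 to 80.9 intensity units, and the precision of each value is limited by how many arrays a group has. Detection could be checked on the 6 arrays whose background is not filled. The probes of Tyrobp, C5ar1, Coro1a, C1qb, Klra5 and Csk exceeded the 95th percentile of the negative-control spots on 5 of the 6, that of Laptm5 on 6, that of Lyn on 4 and that of Igsf6 on 3. Stenotic side branch 1 is the only stenotic array among them, and there the probes of Lyn (83.3 intensity units above background) and Igsf6 (76.3) did not exceed that percentile (83.9).

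Among the adaptors and receptors, Tyrobp stood at 8.91, 8.62 and 10.52 in the stenotic side branch, at 6.96, 7.40, 7.46, 7.01 and 7.02 in the NIH vein, at 7.41, 7.28 and 7.05 in the femoral artery, and between 6.60 and 7.60 (median 7.21) in the venous-flow vein. All 3 stenotic arrays lay above all 14 others, and the other groups overlapped. Klra5, a lectin-like receptor of killer cell receptor subfamily A that in mice is known from natural killer cells, stood at 7.81, 6.92 and 7.96 in the stenotic side branch, at 6.40, 6.74, 6.58, 6.21 and 6.45 in the NIH vein, at 5.92, 6.44 and 6.38 in the femoral artery, and between 5.72 and 6.44 (median 5.89) in the venous-flow vein. Again the 3 stenotic arrays were the highest, with NIH vein 2 the nearest below them. Igsf6, an immunoglobulin-superfamily receptor known in humans from dendritic cells and macrophages, stood at 7.10, 6.73 and 7.69 in the stenotic side branch, at 6.00, 5.68, 6.15, 5.90 and 5.75 in the NIH vein, at 5.96, 6.34 and 6.12 in the femoral artery, and between 5.81 and 6.10 (median 5.90) in the venous-flow vein. Outside the stenotic side branch the group means of Igsf6 lay within 0.5 of the floor, so no fold is given for it.

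Of the complement members, C1qb varied most between arrays. It stood at 9.84, 8.66 and 11.43 in the stenotic side branch, at 7.52, 6.85, 8.32, 6.84 and 6.96 in the NIH vein, at 8.22, 7.52 and 7.85 in the femoral artery, and between 6.42 and 8.74 (median 6.89) in the venous-flow vein. Stenotic side branch 2, at 8.66, fell below venous-flow vein 4, at 8.74, so these groups overlapped, while the stenotic arrays stood clear of the NIH vein and the femoral artery. C5ar1 stood at 7.76, 7.30 and 9.30 in the stenotic side branch, at 6.18, 6.69, 6.73, 6.22 and 5.88 in the NIH vein, at 6.27, 6.34 and 6.19 in the femoral artery, and between 5.77 and 6.85 (median 6.04) in the venous-flow vein. Its 3 stenotic arrays were the 3 highest, and venous-flow vein 4 came next.

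The kinase pair differed in pattern. Lyn stood at 7.20, 6.91 and 7.41 in the stenotic side branch, at 6.68, 5.99, 6.37, 6.32 and 6.07 in the NIH vein, at 6.14, 6.01 and 5.98 in the femoral artery, and between 5.84 and 6.28 (median 6.05) in the venous-flow vein. The stenotic arrays were the highest, and the femoral artery and the venous-flow vein lay near the floor. Csk stood at 7.62, 7.66 and 8.37 in the stenotic side branch, at 7.82, 6.77, 6.76, 7.28 and 7.52 in the NIH vein, at 6.33, 6.77 and 6.64 in the femoral artery, and between 6.46 and 6.93 (median 6.66) in the venous-flow vein. NIH vein 1 lay above 2 of the 3 stenotic arrays, so the stenotic side branch and the NIH vein overlapped for Csk.

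Laptm5, a lysosomal membrane protein of blood-forming cells that limits receptor signalling, stood at 9.38, 9.33 and 10.48 in the stenotic side branch, at 8.05, 8.87, 9.64, 7.80 and 8.45 in the NIH vein, at 8.09, 8.27 and 7.69 in the femoral artery, and between 7.31 and 8.66 (median 8.16) in the venous-flow vein. NIH vein 3, at 9.64, was the second highest of the 17 arrays, above stenotic side branch 1 and 2. Coro1a, a coronin that organises actin in leukocytes, stood at 7.47, 7.26 and 7.86 in the stenotic side branch, at 6.25, 6.21, 6.40, 6.00 and 6.84 in the NIH vein, at 6.94, 6.38 and 6.13 in the femoral artery, and between 5.86 and 6.46 (median 6.20) in the venous-flow vein. Its stenotic arrays were the highest, with femoral artery 1 and NIH vein 5 next below. Since each sample is a pool of captured cells, more cells of a type and more RNA per cell cannot be told apart in any of these levels.

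**Figure D1:**
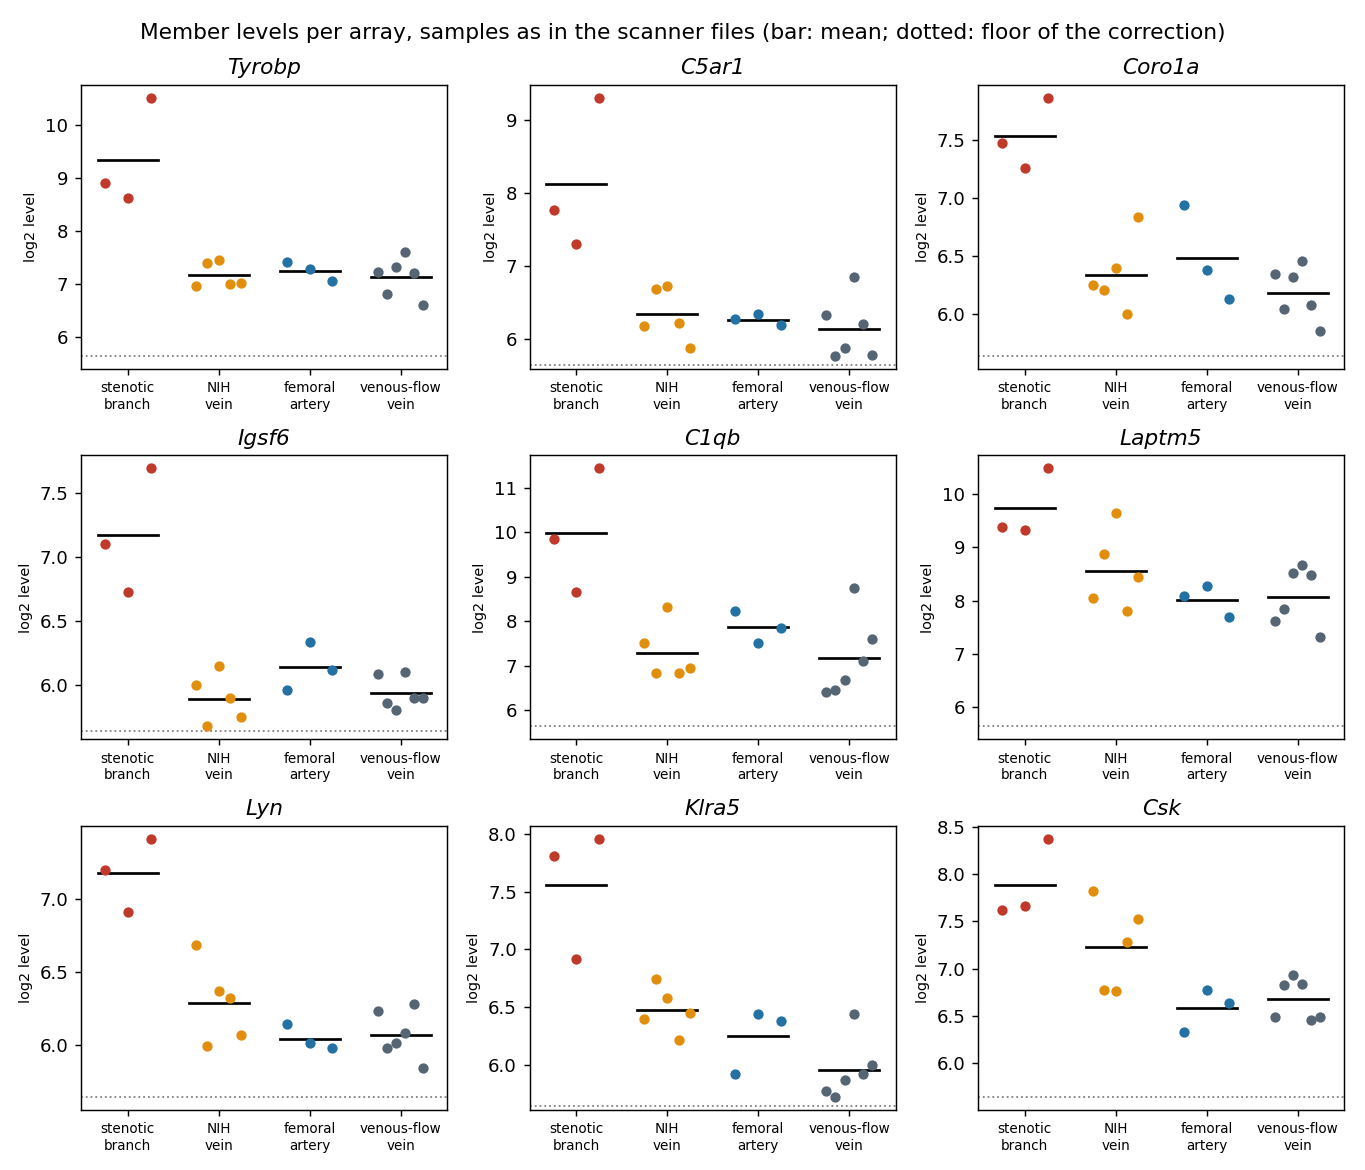
Log2 level of each member (vertical axis of each panel, own scale) on each array, with arrays grouped by the sample of the scanner file along the horizontal axis. Points are arrays, bars are group means and the dotted line is the floor of 5.64. The stenotic points are the 3 highest in 6 of the 9 panels, the exceptions being C1qb, Laptm5 and Csk. The members were chosen for high levels in these arrays, and the share of all probes with this pattern was not computed.

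A single array led all members. Stenotic side branch 3 ranked highest of the 17 arrays for 9 of 9 members, and all 3 stenotic arrays were above the mean of the 17 arrays for each of the 9. The members were chosen for high levels in this group. The share of all probes that peak on this array was not computed, so its lead cannot be called particular to the members. With each member scaled to its own mean and SD over the 17 arrays, the average over the members was 1.54, 1.00 and 2.62 SDs in stenotic side branch 1, 2 and 3. The next highest arrays were NIH vein 3 at 0.16 and venous-flow vein 4 at 0.01, and the lowest were venous-flow vein 6 at -0.87 and venous-flow vein 2 at -0.80. NIH vein 3 was among the 5 highest arrays for 7 members. The scaling to equal distributions bears on this order: in signal above background before normalisation, stenotic side branch 3 was the highest array for 6 members, while Laptm5 peaked in NIH vein 3 (1245.3 intensity units) and Lyn and Csk in NIH vein 1 (147.9 and 430.3 intensity units). Stenotic side branch 3 has a filled background column, as have 10 of the other arrays; the part of this in its levels was not tested.

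**Figure D2:**
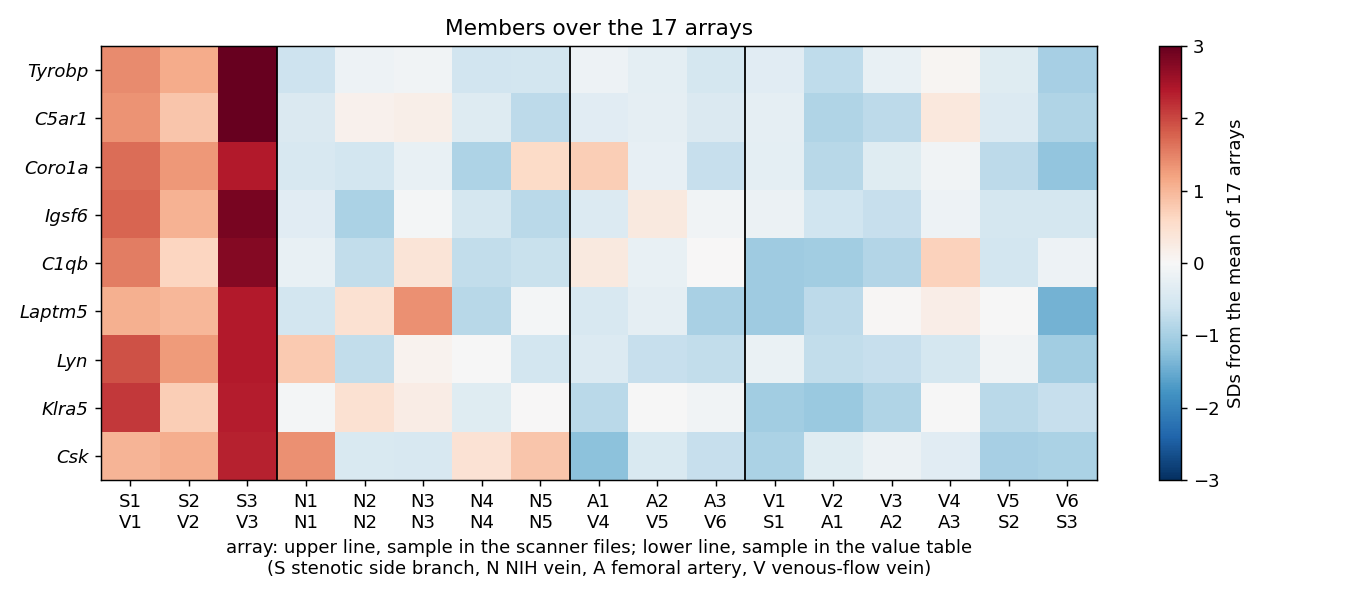
Each member (rows) on each of the 17 arrays (columns), coloured by its distance in SDs from the mean of the 17 arrays; the line below each column gives the sample in the scanner files, then that in the value table. The third column, stenotic side branch 3 or venous-flow vein 3, is the deepest red in all 9 rows, and by the value table the 3 leftmost columns belong to the venous-flow vein.

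Against the venous-flow vein, the stenotic side branch was higher by 1.10 to 2.81 on the log2 scale, with a median of 1.61 over the 9 members (all probes, 0.02). Since the choice of members rests on this contrast, its values describe the choice. C1qb averaged 9.98 ± 1.39 in the stenotic side branch (SD, n = 3) and 7.17 ± 0.89 in the venous-flow vein (SD, n = 6), a log2 difference of 2.81 ± 0.58 (SE). Tyrobp averaged 9.35 ± 1.02 in the stenotic side branch and 7.13 ± 0.36 in the venous-flow vein, a difference of 2.22 ± 0.33, or 4.67-fold. For Laptm5 the difference was 1.66 ± 0.40, or 3.17-fold, and for Csk 1.21 ± 0.23, or 2.32-fold. C5ar1 (1.98 ± 0.35), Klra5 (1.61 ± 0.22), Igsf6 (1.23 ± 0.17) and Lyn (1.10 ± 0.15) have venous-flow means within 0.5 of the floor, so these differences depend on the offset of the correction. Coro1a differed by 1.34 ± 0.21. In 8 of the 9 members every stenotic array lay above every venous-flow array, which 7% of the 9879 probes tested do.

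Against the NIH vein the stenotic differences were 0.66 to 2.68 with a median of 1.19 (all probes near 0). All 3 stenotic arrays lay above all 5 NIH veins for 7 of the 9 members, all but Laptm5 and Csk, as 1.13% of probes do. Against the femoral artery the differences were 1.03 to 2.11 with a median of 1.32, and all 9 members were clear of overlap, as 15.8% of probes are. These comparisons share the stenotic arrays. Without stenotic side branch 3 all 9 differences stayed positive in each: 0.97 to 2.08 (median 1.29) against the venous-flow vein, 0.41 to 1.95 (median 1.02) against the NIH vein and 0.77 to 1.52 (median 1.12) against the femoral artery.

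Under the sample names of the value table the direction turned. With the authors' normalised log2 values, the stenotic side branch was lower than the venous-flow vein for all 9 members, by a median of -1.18 and a range of -2.09 to -0.65. Tyrobp averaged 6.68 ± 0.44 in the stenotic side branch (SD, n = 3) and 8.12 ± 1.44 in the venous-flow vein (SD, n = 6), a difference of -1.44. C1qb averaged 6.71 ± 0.74 in the stenotic side branch and 8.80 ± 1.55 in the venous-flow vein, a difference of -2.09. Under these names the venous-flow vein holds the array with the highest level of each member: C5ar1 ran there from 5.62 to 9.24 with a median of 6.43, and Klra5 from 5.20 to 7.79 with a median of 6.26. No member had groups clear of overlap in this contrast (2.42% of probes lie wholly lower in the stenotic side branch). Without the array listed there as venous-flow vein 3, left out after seeing the data, all 9 differences remained below 0, with a median of -0.88. Against the NIH vein the median was -0.33 with 1 member positive, Igsf6 at 0.12, and Klra5 and Csk lay wholly below the NIH veins, as 4.87% of probes do. Against the femoral artery it was -0.25 with Igsf6 (0.06) and Lyn (0.13) positive, and Csk lay wholly below, as 4.89% of probes do. With the authors' values under the scanner-file names, the 9 stenotic differences were positive in each of the 3 comparisons, so with either set of values the direction followed the sample names. Which naming is right cannot be settled from these files.

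**Figure D3:**
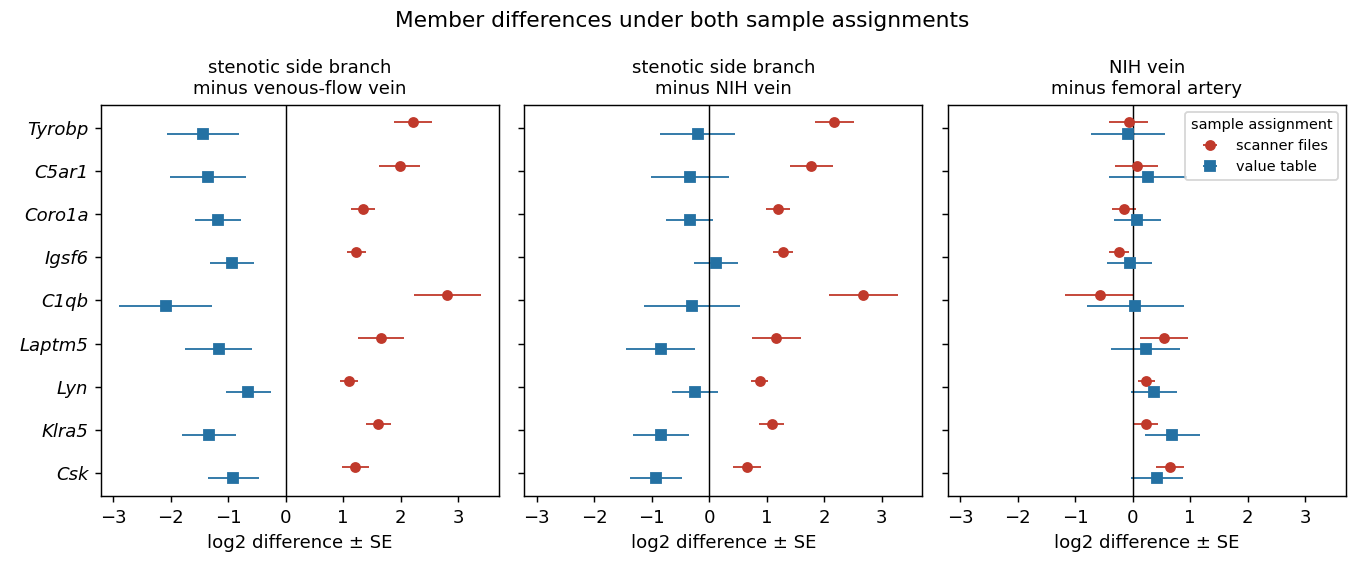
Log2 difference of each member (rows) with its SE for the stenotic side branch minus the venous-flow vein (left), the stenotic side branch minus the NIH vein (middle) and the NIH vein minus the femoral artery (right), by scanner-file names (circles) and value-table names (squares). In the left panel the 9 circles lie between 1.10 and 2.81 and the 9 squares between -2.09 and -0.65.

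Outside the stenotic side branch no member had a called difference. Few of all probes had one either, so this is not particular to the members. The NIH vein and the femoral artery, both under arterial flow, were compared for lesioned vein against lesion-free artery, and the choice of members did not use this contrast, although the NIH arrays entered an earlier comparison with the stenotic side branch. None of the 9 members passed an adjusted p of 0.05 in limma, where 2.32% of all probes did (229 of 9879, and 2454 at an unadjusted p under 0.05), and all 9 overlapped between the groups, where 9.32% of probes lay wholly higher and 6.05% wholly lower in the NIH vein. The strongest of them, Csk, averaged 7.23 ± 0.46 in the NIH vein (SD, n = 5) and 6.58 ± 0.23 in the femoral artery (SD, n = 3), a difference of 0.65 ± 0.24 (SE; limma adjusted p = 0.125). Laptm5 was at 8.56 ± 0.73 in the NIH vein and 8.02 ± 0.30 in the femoral artery, a difference of 0.54 ± 0.42 (limma adjusted p = 0.426). C1qb was at 7.30 ± 0.64 in the NIH vein and 7.86 ± 0.35 in the femoral artery, a difference of -0.57 ± 0.60 (limma adjusted p = 0.574). The 6 others differed by -0.24 (Igsf6) to 0.24 (Lyn), with limma adjusted p-values of 0.329 to 0.919, and Tyrobp differed by -0.07 ± 0.34. The SEs of the 9 differences were 0.15 to 0.60. Differences well above 1 SE could still go uncalled with these arrays, as that of Csk did. Under value-table names the 9 differences ran from -0.08 to 0.69 with a smallest limma adjusted p of 0.614, and no probe of the whole table was called.

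The venous-flow arrays helped to choose the members, and such a choice can favour low values in them. Other comparisons with these arrays are therefore given by range. The signs, p-values and calls in them are a description and no test of the members. The NIH vein differed from the venous-flow vein by -0.05 to 0.56 with a median of 0.21; 8 members were positive, none was called (0.0405% of probes were) and the smallest adjusted p in limma was 0.189, for Klra5. The femoral artery differed from the venous-flow vein by -0.10 to 0.69 with a median of 0.13; 6 members were positive, the smallest adjusted p in limma was 0.863, and no probe of the table was called (0%; 486 at an unadjusted p under 0.05). All 9 members overlapped between the groups in both, where 0.972% of probes lay wholly higher and 0.233% wholly lower in the NIH vein, and 1.06% wholly higher and 1.15% wholly lower in the femoral artery. Under value-table names, which put the 3 high arrays into the venous-flow vein, the medians were -0.84 for the NIH vein and -0.99 for the femoral artery, again with no member called. By mean level, the stenotic side branch came first for all 9 members under scanner-file names. Below it the order of the other 3 groups varied from member to member, and all 9 members overlapped between each pair of these 3 groups.

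Whether members move together where they were not selected for it was read from the 14 arrays outside the stenotic side branch, with group means removed. The 36 pairs of members had a median Pearson r of 0.21 (Spearman 0.18) and a range of -0.43 to 0.81, and 28 were above 0. All pairs of probes had a median of 0.00 on these arrays. Tyrobp ran with C5ar1 (r = 0.81, Spearman 0.76) and with Laptm5 (r = 0.81, Spearman 0.82), and C5ar1 had the highest median r with the other members, 0.52. Csk did not follow: its median r with the others was -0.10, and its pair with C5ar1 was the lowest of the 36 at -0.43. Coro1a (median 0.11) and Lyn (median 0.17) also had low medians. On these arrays C5ar1, Klra5, Igsf6 and Lyn have venous-flow means within 0.5 of the floor. The part of this in their r was not tested. Pairs share array, amplification and normalisation, and the 14 points carry no p. Over all 17 arrays with group means kept, which the choice of members forces upward, the median was 0.83 with a range of 0.58 to 0.97. Venous-flow vein 4 bears on the smaller value, since the median over 13 arrays without it was 0.12.

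**Figure D4:**
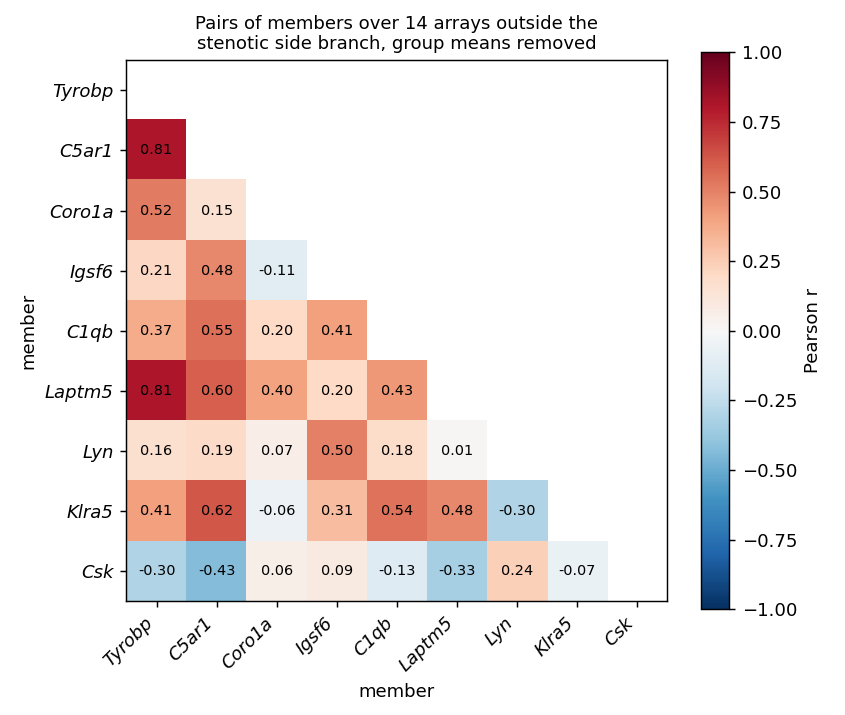
Pearson r of each pair of members (rows and columns) over the 14 arrays outside the stenotic side branch, after group means were removed. Tyrobp with C5ar1 and with Laptm5 reach 0.81, and the row of Csk holds most of the negative values, down to -0.43.

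The genes whose profile over the 17 arrays was most like the mean of the 9 members were taken from 2869 other symbols. Ptpn6, the tyrosine phosphatase recruited by inhibitory receptors of leukocytes, came first with r = 0.96 over 17 arrays and 0.64 over the 14 arrays with group means removed. Then came Hopx (0.93 and 0.40), a homeodomain-only protein, and Tbxas1 (0.91 and 0.45), the thromboxane synthase. Cd74, the invariant chain of class II antigen presentation, had 0.89 and 0.30, and Ctsc, a lysosomal protease that activates granule enzymes, had 0.89 and 0.40. Prkcb (0.88 and 0.73), a protein kinase C, Apobec1 (0.88 and 0.40), a cytidine deaminase, and Tnfrsf1b (0.87 and 0.27), a receptor of tumour necrosis factor, followed. Smpdl3a, a phosphodiesterase related to acid sphingomyelinase, had 0.84 over the 17 arrays and 0.90 over the 14, and Ptafr, the receptor of platelet-activating factor, had 0.83 and 0.57. Of 9870 probes, 43 reached the r of the tenth named gene. The value over 17 arrays is set largely by the 3 stenotic arrays.

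Other genes of the same pathways were few among the measured symbols. Of the receptors and phosphatases of inhibitory signalling, 5 of 20 on the list were measured, and 4 had a positive difference between the stenotic side branch and the venous-flow vein, with a median of 0.54 (all probes, 0.02). Ptpn6 was the only one called, at 1.05 (limma adjusted p = 0.0102), where 0.385% of probes were called higher. List genes given a p-value in this contrast were named by the size of the same difference. Ptpn6 was also named for its likeness to the members' mean. These p-values are therefore a description and no support for the members' pattern. Sirpa, a myeloid inhibitory receptor, differed by 0.91 (limma adjusted p = 0.143), Inpp5d, a lipid phosphatase that opposes signalling, by 0.54, and Ptpn11, a broadly used phosphatase, by -0.46. Among Src-family kinases and their regulators other than Lyn and Csk, 4 of 18 were measured and none was called. Fgr, a myeloid kinase, differed by 0.23, Unc119, an adaptor of these kinases, by -0.08 and Matk, a relative of Csk, by -0.14. Of the genes downstream of Syk, 2 of 26 were measured, Bcl10 at -0.38 and Prkcd at 0.02, and of the other adaptors and receptors of activating signalling 1 of 20, Klrc2 at 0.12. Under value-table names Ptpn6 differed by -0.78 and Sirpa by 0.17.

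Complement genes other than C1qb and C5ar1 went both ways. Of 36 on the list 6 were measured, 3 with a positive and 3 with a negative difference between the stenotic side branch and the venous-flow vein, a median of -0.12 and none called. C1qa, which encodes the partner chain of C1qb in C1q, stood at 6.16 ± 0.42 in the stenotic side branch (SD, n = 3) and 5.83 ± 0.03 in the venous-flow vein (SD, n = 6), close to the floor in both, a difference of 0.34. It is named although it falls outside the rule for named genes, after its values were seen. C3ar1, the receptor of the C3a fragment and a relative of C5ar1, stood at 7.77 ± 1.42 in the stenotic side branch and 9.70 ± 1.91 in the venous-flow vein, a difference of -1.93 (limma adjusted p = 0.352). Clu, a complement inhibitor, differed by -1.13, Cd93, a lectin-like receptor of endothelium and myeloid cells, by -0.55, and Cd46, a complement regulator, by 1.20. Among actin regulators of leukocytes other than Coro1a, 7 of 21 were measured and all 7 differences were positive with a median of 0.38, but none was called: Arpc5, an actin-branching subunit, differed by 1.04 (limma adjusted p = 0.304), Gmfg, a debranching factor of leukocytes, by 0.86, and Pfn1, an actin-monomer binder, by 0.84. Under value-table names 6 of these 7 were negative.

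Between the NIH vein and the femoral artery, 3 genes of all the lists were called in limma. Sirpa stood at 8.29 ± 0.32 in the NIH vein (SD, n = 5) and 6.75 ± 0.46 in the femoral artery (SD, n = 3), a difference of 1.54 (limma adjusted p = 0.0214). Evl, an actin-associated protein of leukocytes and other cells, was higher in the NIH vein by 0.77 (limma adjusted p = 0.0292), with a femoral artery mean of 5.81 near the floor. Col1a2, a fibrillar collagen chain, was higher in the NIH vein by 4.28 (limma adjusted p = 0.016). None of the 9 members is among them. Leaving out femoral artery 1 or 3 ended every call of this comparison, and under value-table names there was none.

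Markers of other cell types were read beside the members, as sums of normalised intensity over a list. Of 24 myeloid markers 6 were measured, and none was called in the stenotic side branch against the venous-flow vein. Of the 6 differences 5 were positive, with a median of 0.38 (all probes, 0.02). Under value-table names 1 of the 6 was positive, with a median of -0.50 (all probes, -0.04). The sums and averages that follow are by scanner-file names. Their sum was 1511 to 21755 in the stenotic side branch, 160 to 3819 in the NIH vein, 374 to 792 in the femoral artery and 306 to 3059 in the venous-flow vein, and Lgals3, which macrophages and other cells make, is the brightest of them. Lgals3 alone stood at 11.92 ± 2.19 in the stenotic side branch (SD, n = 3) and 10.02 ± 1.24 in the venous-flow vein (SD, n = 6). Cd14 averaged 6.07 in the stenotic side branch and 5.77 in the venous-flow vein, and Fcgr2b, an inhibitory antibody receptor, 6.56 in the stenotic side branch and 6.08 in the venous-flow vein. Ctss, a lysosomal protease of antigen-presenting cells, averaged 6.68 in the stenotic side branch and 6.23 in the venous-flow vein. The remaining measured myeloid markers, Cd68 and Csf1r, fall outside the rule for named genes and hardly differed. Cd68 averaged 6.99 in the stenotic side branch and 6.95 in the venous-flow vein, and Csf1r 5.91 in the stenotic side branch and 5.96 in the venous-flow vein. The neutrophil protein S100a8 was at 7.30 in the stenotic side branch and 6.41 in the venous-flow vein.

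Of 29 markers of T and natural killer cells 2 were measured, Cd3d with a difference of 0.40 and Cd8b with one of -0.15. Of 23 genes shared by leukocytes 5 besides the members were measured, none called, led by Arhgdib at 0.86. No marker of B cells (10 on the list) or of fat cells (8 on the list) was measured. Red cell and platelet markers summed to 14477 to 55464 in the stenotic side branch, 14498 to 55934 in the NIH vein, 8235 to 56247 in the femoral artery and 1448 to 38465 in the venous-flow vein. For fibroblast markers the sums were 10702 to 37893 in the stenotic side branch, 9613 to 39161 in the NIH vein, 514 to 3034 in the femoral artery and 2139 to 10953 in the venous-flow vein. Each of these sums follows mainly 1 bright gene. Hbb-b1 averaged 15.08 in the stenotic side branch and 14.92 in the NIH vein. Col1a2 averaged 14.39 in the stenotic side branch and 14.28 in the NIH vein, where Dcn averaged 6.09 and 5.88. Smooth muscle markers summed to 31 to 41 in the stenotic side branch, 25 to 92 in the NIH vein, 51 to 96 in the femoral artery and 19 to 112 in the venous-flow vein. The labelled cell type could be checked on 1 of 20 endothelial markers, the receptor Kdr, at 8.01 ± 0.82 in the stenotic side branch, 6.93 ± 0.32 in the NIH vein, 6.06 ± 0.21 in the femoral artery and 6.93 ± 0.75 in the venous-flow vein. All these values are by scanner-file names. Under value-table names, 0 of the 5 shared leukocyte genes had a positive stenotic minus venous-flow difference (median -0.24). Of 7 red cell and platelet markers 0 were positive (median -0.82), of 3 fibroblast markers 1 (median -0.22) and of 3 smooth muscle markers 3 (median 0.24). Kdr differed by 0.28. The part of other cell types in the members' levels was not tested.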

How the data were processed

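Per the file headers, the authors deposited scanner intensity for each spot (signal, background and their difference), and a table of log2 values whose sorted columns differ by 2.74e-05 on average, as after quantile normalisation. The dye was Cy5 per the labels. The sources used here give neither the scanner, nor its software, nor how the 10000 spots with a value (9879 probes; 41372 gene spots in all) were chosen. A planned filter by detection could not be used, since control spots are filled on 11 arrays. Signal and background at these spots were corrected by normexp (offset 50), put on the log2 scale, quantile normalised and averaged per probe. The difference column was not used, since that of venous-flow vein 5 repeats another array's. Probes were named by accession through a RefSeq table: 3119 spots matched 1 symbol and 6881 none.

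One limma model over 17 arrays gave 6 contrasts with 2-sided p-values, Benjamini-Hochberg adjusted over 9879 probes (limma 3.58.1, R 4.3.3, Python 3.11.15, pandas 2.3.3, numpy 2.4.6, matplotlib 3.10.9); the model was tested on simulated data. Members, lists and the naming rule (the 10 symbols most correlated with the members' mean, and up to 4 genes a list by size of the stenotic to venous-flow difference) were chosen with earlier results of these data known. Between the NIH vein and the femoral artery called list genes are named too. The distance of 0.5 from the floor was set after seeing the data. Replicate numbers were checked as pairs: over 20 pairs of equal number, deviations from group means correlated from -0.609 to 0.321, with 7 above 0.1, so they were not used as pairs. Alternatives were other background corrections, median scaling, the value table, brighter probes, 2 groups at a time, a replicate block and each array left out.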

Additional observations from a re-analysis of the deposited data

How the results depend on the processing

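Under value-table names the stenotic minus venous-flow differences turned to -1.44 (Tyrobp), -1.36 (C5ar1), -1.18 (Coro1a), -0.93 (Igsf6), -2.09 (C1qb), -1.17 (Laptm5), -0.65 (Lyn), -1.34 (Klra5) and -0.91 (Csk), and without the array named venous-flow vein 3 there to -0.97 (Tyrobp), -0.88 (C5ar1), -0.98 (Coro1a), -0.67 (Igsf6), -1.57 (C1qb), -0.83 (Laptm5), -0.44 (Lyn), -1.08 (Klra5) and -0.64 (Csk). Against the NIH vein 8 members turned, Tyrobp to -0.20, C5ar1 to -0.33, Coro1a to -0.34, C1qb to -0.30, Laptm5 to -0.84, Lyn to -0.25, Klra5 to -0.84 and Csk to -0.93, and Igsf6 was at 0.12. Against the femoral artery 7 turned, Tyrobp to -0.28, C5ar1 to -0.06, Coro1a to -0.27, C1qb to -0.25, Laptm5 to -0.61, Klra5 to -0.15 and Csk to -0.50, with Igsf6 at 0.06 and Lyn at 0.13. The names of the samples are the only change that turned a stenotic difference. Between the NIH vein and the femoral artery small values changed sign: Tyrobp to 0.58 with median scaling and 0.01 without femoral artery 1, C5ar1 to -0.09 with no background correction and to -0.01 and -0.02 without NIH vein 2 and 3, Coro1a to 0.08 by value-table names, 0.13 with median scaling and 0.08 without femoral artery 1, and C1qb to 0.05 by value-table names and 0.21 with median scaling; the cause was not tested, and no member was called in any of these. Without 1 array Tyrobp ran from -0.17 to 0.01, C5ar1 from -0.02 to 0.19 and Coro1a from -0.32 to 0.08.

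Counts of called probes moved more. For the NIH vein against the venous-flow vein 4 probes were called, with 0 by value-table names, 16 with median scaling, 0 with the replicate block, 2 with only the 2 groups, 9 among brighter probes (the upper 50% by mean) and 1 to 284 without 1 array. For the NIH vein against the femoral artery there were 229, with 0 by value-table names, 97 without background correction, 344 with offset 16, 51 with median scaling, 0 with the replicate block, 652 among brighter probes and 0 to 546 without 1 array. The stenotic side branch against the venous-flow vein gave 40, with 17 by value-table names, 87 with background subtracted, 114 with offset 16, 5 with median scaling, 1 with the replicate block, 88 with only the 2 groups, 71 among brighter probes, 87 with the authors' values under scanner-file names and 8 to 132 without 1 array (9 by value-table names without venous-flow vein 3). Against the NIH vein it gave 9, with 28 by value-table names, 3 with background subtracted, offset 16, median scaling or the authors' values, 1 with the replicate block, 0 with only the 2 groups and 1 to 11 without 1 array. Against the femoral artery it gave 184, with 19, 1, 1 and 59 by value-table names, median scaling, the replicate block and only the 2 groups, and 1 to 533 without 1 array. The femoral artery against the venous-flow vein gave 0 throughout. The replicate block rests on numbers that do not pair the arrays. Median r of the members was 0.33 with median scaling, 0.83 over 17 arrays and 0.12 to 0.35 without 1 array. Offset 16 in place of 50 took the stenotic minus venous-flow difference of Igsf6 to 1.95, of Lyn to 1.72 and of Klra5 to 2.47.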

Other observations

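Csk and Lyn each have a further probe on the array outside the value table. On the 6 arrays whose background is not filled these probes exceeded the 95th percentile of the negative-control spots on 0 arrays, while the probes described above did so on 5 (Csk) and 4 (Lyn). On NIH vein 5 that percentile was 415.0 intensity units above background, against 6.8 to 83.9 on the other 5 arrays, and of the 9 members only Laptm5 exceeded it there. For each member in the NIH vein and the venous-flow vein, a single array's gap to its nearest array was set against the group's range. In these 18 checks 0 met the criterion, where chance gives about 1 in 20. So low a chance rate leaves this count uninformative about single arrays.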
